A study of Drosophila melanogaster with 3 samples.

Results

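The regions described here are the Zif ChIP-seq summits that lay at promoters of noncoding RNA genes in Drosophila melanogaster embryos. A summit was taken when it was within 500 bp of an annotated transcription start site (TSS) of a gene that is not protein-coding and more than 500 bp from every protein-coding TSS, by Ensembl gene models without transposable elements. The authors' final set held 204 such noncoding promoter summits (2.36% of the set, exact 95% CI 2.05 to 2.71), beside 4948 summits within 500 bp of a protein-coding TSS and 3478 distal summits, which make up the rest. They came from 3 biological replicates of 1 group: whole embryos of both sexes, aged 0 to 24 h, from a transgenic line that stably expresses Zif (CG10267) fused to GFP at its C-terminal end. Chromatin was precipitated through the GFP tag. All samples carried the same transgene, the promoter that drives it is not given in the labels, and there was no second genotype, treatment or stage. The final set had passed a threshold on the irreproducible discovery rate (IDR), which scores whether a peak holds a similar rank in different replicates, and is called the IDR set here. Each of the 204 summits overlapped a relaxed peak, one called at a permissive cut-off, in each of the 3 replicates. No replicate is taken as independent of the IDR set, so this overlap is not separate support for the summits. The share over all IDR summits is not given here.

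Zif belongs to the fly's large family of C2H2 factors that carry a ZAD domain, and is known for its part in neuroblast division through the aPKC gene. Noncoding RNA genes use more than 1 kind of promoter. RNA polymerase II makes long noncoding RNAs (lncRNAs), primary miRNA transcripts, snoRNA host transcripts and most spliceosomal snRNAs. RNA polymerase III makes tRNAs from promoter elements inside the gene, the A box and the B box, and makes U6 snRNA from elements upstream. The annotated start of an miRNA gene is the end of its hairpin, and that of a snoRNA encoded in an intron is the end of the mature RNA, so neither marks where transcription begins.

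The sequences under the summits ranged from AT-rich stretches to matches of motifs known from protein-coding promoters. Each stretch below is 101 bases centred on the summit, in the direction of the noncoding gene, read from the RefSeq Release 6 assembly that dm6 represents. The first 3 are the summits of ranks 2, 3 and 5 by signal among the 204, at uncharacterised lncRNA genes. Capitals mark the letters of a TATA box (TATAAA) in the second, whose summit lay 158 bp upstream of the start. They mark a BEAF-32 core (CGATA) in the third. In the remaining 3, capitals mark CANCACTG on the opposite strand at a tRNA gene, the M1BP motif (GGTCACAC) at roX2 and the DNA replication-related element (DRE, TATCGATA) at a pseudogene.
lncRNA:CR31044 (chr3R:29214389-29214489, + strand): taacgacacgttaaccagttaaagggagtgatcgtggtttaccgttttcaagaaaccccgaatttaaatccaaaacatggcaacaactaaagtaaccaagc
lncRNA:CR46036 (chr3R:17700533-17700633, + strand): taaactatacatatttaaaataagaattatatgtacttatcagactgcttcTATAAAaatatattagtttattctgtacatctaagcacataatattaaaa
lncRNA:CR45433 (chr3L:19861301-19861401, + strand): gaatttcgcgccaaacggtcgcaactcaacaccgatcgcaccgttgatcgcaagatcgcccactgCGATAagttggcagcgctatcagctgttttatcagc
tRNA:Ser-AGA-2-4 (chr2L:3173118-3173218, - strand): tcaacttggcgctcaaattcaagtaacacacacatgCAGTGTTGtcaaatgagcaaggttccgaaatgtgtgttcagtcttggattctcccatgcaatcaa
lncRNA:roX2 (chrX:11578984-11579084, + strand): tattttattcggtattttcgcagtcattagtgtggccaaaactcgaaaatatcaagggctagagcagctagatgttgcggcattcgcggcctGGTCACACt
CR14117 (chr3L:13008154-13008254, + strand): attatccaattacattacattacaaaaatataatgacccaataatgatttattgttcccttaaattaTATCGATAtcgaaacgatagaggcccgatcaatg

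CANCACTG is the word that recurs at the strongest protein-coding promoter summits of the same data, and it was added to the motif list after seeing those summits. The 30-base stretches below show the word and 11 bases on each side, on the strand of the word, for 8 of the 13 noncoding promoter summits with a match.
tRNA:Ser-AGA-2-4 (chr2L:3173164-3173193, + strand): tgctcatttgaCAACACTGcatgtgtgtgt
lncRNA:CR43144 (chr2L:21657644-21657673, + strand): ccgacgtctcaCAACACTGaaaatgtaagc
lncRNA:CR43883 (chr3L:820428-820457, + strand): aaagattctgcCAGCACTGaaagaaaaaaa
asRNA:CR43981 (chrX:17857981-17858010, + strand): aacatgtttccCAACACTGggcacatacat
lncRNA:CR44585 (chr2L:11338502-11338531, - strand): aactggatggtCAGCACTGggggaaaaatt
tRNA:Glu-CTC-3-6 (chr3L:1398133-1398162, + strand): ttatcgttaacCAACACTGaatgcaagaat
lncRNA:Hsromega (chr3R:21296452-21296481, - strand): acgagtgtctaCATCACTGtgctacaaaaa
lncRNA:CR43837 (chrX:6998044-6998073, + strand): cagaaggtatgCAACACTGtgtggtaggtt
The letter at N was A in 5 of these 8 sites, G in 2 and T in 1. Sites not shown include those at tRNA:Phe-GAA-1-5, asRNA:CR44179 and lncRNA:CR44127, so this tally holds for the shown sites only.

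The lncRNA class made up most of the summits. By the nearest noncoding TSS, 165 of the 204 lay at genes annotated as ncRNA, called lncRNA here, 19 at tRNA genes, 8 at miRNA hairpins, 5 at snoRNA genes, 4 at snRNA genes and 3 at pseudogenes. None of the 99 annotated rRNA genes had one. Of the 165, 143 carry a lncRNA symbol and 19 an antisense RNA symbol, and 2 are the snoRNA host genes Uhg3 and Uhg4. One noncoding gene lay within 500 bp of 177 summits, and 27 summits had 2 to 4 such genes, 15 of them at tRNA genes.

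Few noncoding genes had a summit at this threshold, and the classes were unequal. Among noncoding genes with a TSS more than 500 bp from every protein-coding TSS, 210 of 3146 had an IDR summit (6.68%), against 5723 of 13945 protein-coding genes (41.0%). In the replicates' own lists, cut to their strongest peaks at the length of the IDR set, the noncoding share was 6.66% ± 0.402 (SD, n = 3). The share was 14.0% for tRNA genes (36 of 258, exact 95% CI 9.97 to 18.8; replicates 14.5% ± 2.52) and 7.26% for lncRNA genes (150 of 2065). It was 13.8% for snRNA genes (4 of 29), 3.75% for snoRNA genes (9 of 240), 3.03% for miRNA hairpins (7 of 231) and 1.79% for pseudogenes (4 of 224). Among the 50% strongest IDR summits the order of the 2 large classes was reversed, with 1.94% of tRNA and 4.31% of lncRNA genes. These intervals cover counting error only, neighbouring genes can share a summit, and a gene without a summit was not shown to be unoccupied. In whole embryos a site used in few cells and a site weakly used in many cannot be told apart.

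At the permissive cut-off the tRNA and snRNA genes stood out from the other classes. A summit of the pooled relaxed list of 30000 lay within 500 bp of 789 of the 3146 noncoding genes (25.1%) and of 56.3% of protein-coding genes. It lay at 164 of the 258 tRNA genes (63.6%; replicate lists 65.5%, 53.5% and 57.8%) and at 55.2% of snRNA genes (55.2%, 62.1% and 55.2%), but at 24.1% of lncRNA genes (25.1%, 23.6% and 23.4%). In all 3 replicates the tRNA share was more than double the lncRNA share, and the ranges did not overlap. The signal of a control library at these genes was not analysed here.

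**Figure D1:**
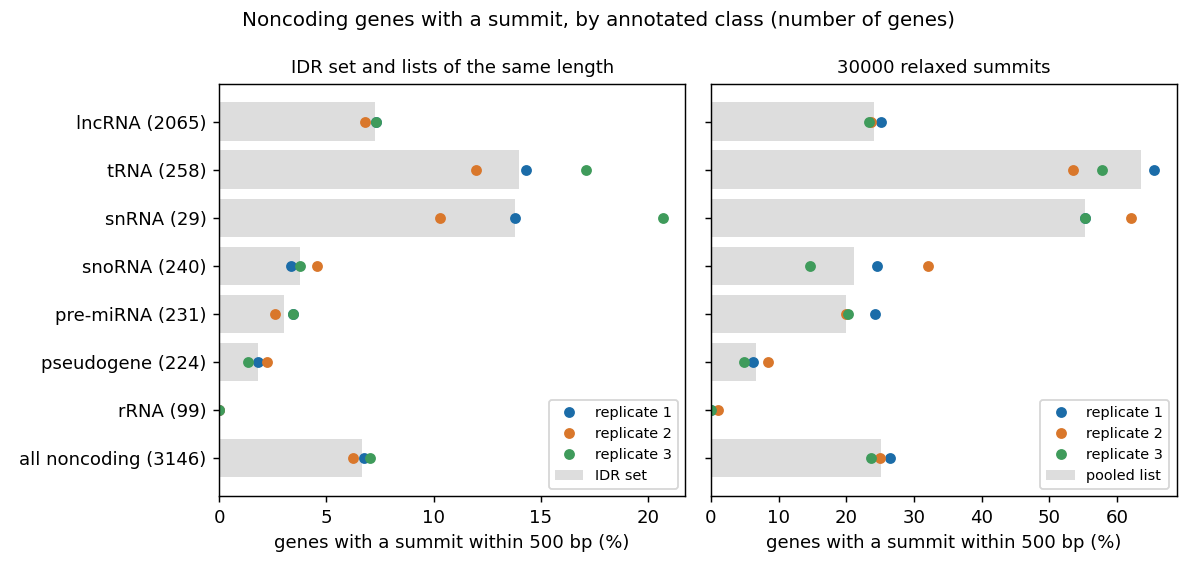
Percentage of noncoding genes of each annotated class (number of genes in brackets) with a summit within 500 bp, for the IDR set (left) and the relaxed lists of 30000 summits (right); points are the replicates' own lists of the same length. tRNA genes reach 14.0% on the left and 63.6% on the right, lncRNA genes 7.26% and 24.1%.

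Per megabase, noncoding promoters held fewer summits than protein-coding promoters and more than the rest of the genome. Sequence within 500 bp of a noncoding TSS and outside protein-coding promoters covered 2.80 Mb and held 72.8 summits per Mb (replicates 72.4 ± 2.09, SD, n = 3). Protein-coding promoters held 323 per Mb (334 ± 37.0) and distal sequence 30.1 (28.6 ± 4.87). The ratio of noncoding promoters to distal sequence was 2.29, 3.04 and 2.40 in replicates 1, 2 and 3, and the ratio to protein-coding promoters was 0.237, 0.186 and 0.233. Each ratio lay on the same side of 1 in every replicate, with a two-sided exact sign-flip permutation p of 0.25, the smallest that 3 replicates allow, so the design cannot reach a threshold of 0.05. Around tRNA genes the density was 104 per Mb (104 ± 10.4), around lncRNA genes 80.9 (80.5 ± 1.86), around miRNA hairpins 41.5 (39.7 ± 7.92) and around pseudogenes 18.3 (19.9 ± 7.01). Around snoRNA genes it was 59.6 (62.1 ± 11.4). The highest value, 153 around snRNA genes (153 ± 66.3), rests on 4 summits. Between protein-coding genes noncoding promoters held 83.9 summits per Mb and inside them 57.1, whereas distal sequence held 32.7 and 28.8, so the higher density at noncoding promoters was present in both settings.

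The chromosome arms differed in number. Arms 2L and 2R held 49 and 55 of the summits, arms 3L and 3R held 37 and 38, the X held 24 and chromosome 4 held 1. Relative to noncoding promoter sequence, arm 2R held 107 per Mb and the other large arms and X between 59.8 (3R) and 75.2 (2L). The share inside protein-coding genes was smaller than among distal summits: 138 of the 204 lay between protein-coding genes (67.6%, distal summits 36.1%), 58 in introns (28.4%, distal 60.6%), 4 in 5′ UTRs, 4 in 3′ UTRs and 0 in coding exons. The noncoding promoter sequence itself was 58.7% intergenic, against 33.2% of distal sequence.

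Summits were most frequent just upstream of the noncoding start. Of the 204, 127 lay at or upstream of the nearest noncoding TSS (62.3%, exact 95% CI 55.2 to 68.9), at a median position of −83.5 bp (interquartile range −217 to 186, negative upstream). The 200 bp upstream of the TSS, 20.1% of the window searched, held 73 summits (35.8%; 35.4% ± 0.634 in the replicates' lists, SD, n = 3). This stretch held 11 of the 19 tRNA summits (57.9%) and 53 of the 165 lncRNA summits (32.1%). Summits at noncoding genes were nonetheless less tightly placed than those at protein-coding genes. Within 100 bp of the start lay 51 of the 204 and 51.3% of the protein-coding promoter summits, whose genes have more annotated starts; that difference was not tested.

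**Figure D2:**
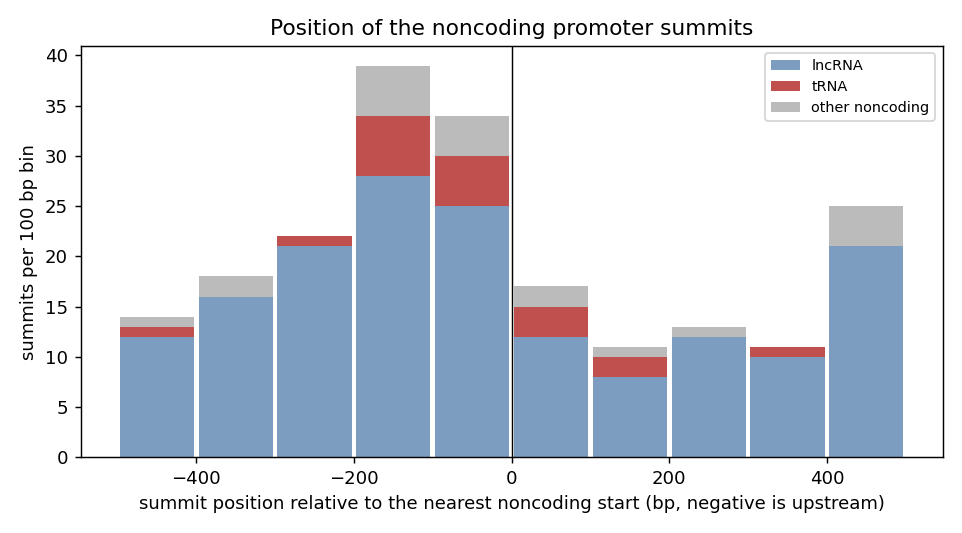
Number of the 204 noncoding promoter summits per 100 bp bin against position relative to the nearest noncoding start (bp, negative is upstream), stacked by class of gene. The 200 bp upstream of the start hold 73 summits, and the bin from 400 to 500 bp downstream holds 25.

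At the edges of the rule, the 20 summits at 451 to 500 bp from the noncoding TSS had a median signal of 401, and the 20 distal summits at 501 to 550 bp had 469. The 4 summits at 501 to 550 bp from a protein-coding TSS had a median of 951, and the 7 summits at 451 to 500 bp from one and within 500 bp of a noncoding TSS, which the rule leaves out, had 575. The distance to the nearest protein-coding TSS ran from 511 to 48823 bp (median 3004), with 28 summits at 1000 bp or less. A further 224 IDR summits within 500 bp of a noncoding TSS were left out because a protein-coding TSS also lay within 500 bp. Their median signal was 413.

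Peak strength at noncoding promoters had a higher median than at distal sites in every replicate. Against protein-coding promoters no difference was detectable, with replicate 2 apart from the other 2. The deposited signal, the peak caller's value for each peak, ran from 204 to 3566 with a median of 406 (interquartile range 277 to 742), beside medians of 448 at protein-coding promoter summits and 358 at distal summits. To compare replicates, relative signal is used here, which is a replicate's signal over the median of its values across the IDR set. The median relative signal of the 204 was 1.07, 0.798 and 1.10 in replicates 1, 2 and 3. At distal summits it was 0.905, 0.621 and 0.893, lower in every replicate. The ratio to distal summits was 1.18, 1.28 and 1.23 (mean 1.23 ± 0.0511, log2 0.30 ± 0.06; SD, n = 3; two-sided exact sign-flip permutation p = 0.25). Against protein-coding promoter summits (1.10, 1.37 and 1.09) the ratio was 0.970, 0.582 and 1.01, on both sides of 1, and no difference was detectable (log2 −0.27 ± 0.44, exact sign-flip p = 0.5). Without replicate 2 that log2 ratio was −0.02.

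**Figure D3:**
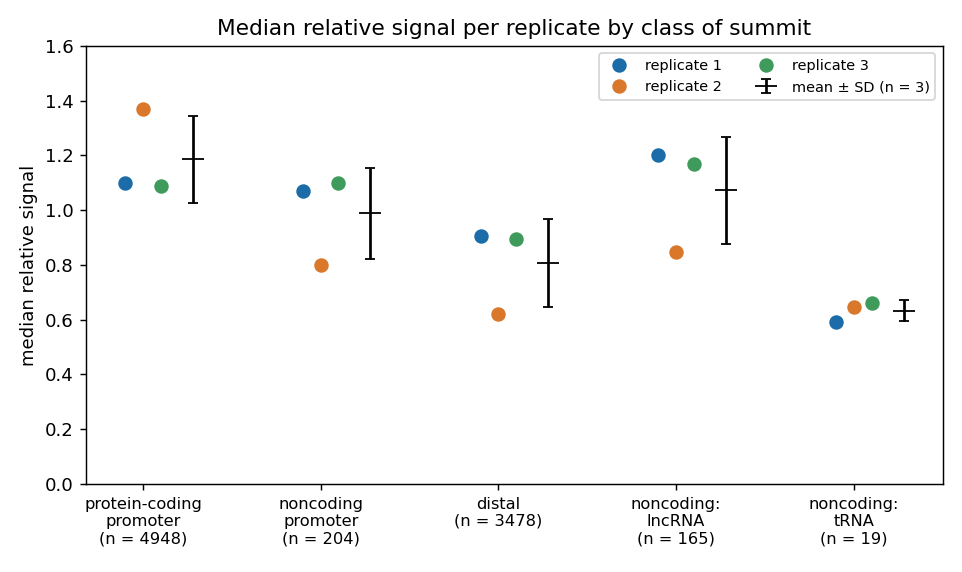
Median relative signal (replicate signal over its median across the IDR set) for each class of summit, with 1 point per replicate and the mean ± SD over 3 replicates. Noncoding promoter summits exceed distal summits in every replicate, and in replicate 2 they sit at 0.798 while protein-coding promoter summits sit at 1.37.

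Replicate 2 also divided the noncoding classes. The relative signal in replicate 2 over the mean of replicates 1 and 3 had a median of 0.682 at lncRNA summits and 1.06 at tRNA summits, against 1.38 at protein-coding promoter and 0.637 at distal summits. The ratio was above 1 at 49 of the 204, of which 31 were at lncRNA and 11 at tRNA genes. These 49 had a median GC content of 36.6% over 101 bp and 8 CANCACTG matches, and the other 155 had 28.7% and 5. The part of base composition in the ratio was not tested.

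Among the lncRNA genes, the strongest summits were far above the median but below the strongest protein-coding promoters, whose highest signal was 8172. Of the 204, 23 ranked among the 1000 strongest IDR summits (11.3%, where those 1000 are 11.6% of the IDR set) and 0 among the 100 strongest. The 204 are 2.36% of the IDR set, so few would be expected among 100, and 0 does not show a depletion. A signal over 1000 was found at 38 of the 204, of which the weakest (signal 1004) ranked 1382 in the IDR set. The share of all IDR summits over 1000 is not given here, so these 38 are not shown to be an excess. The strongest lay 150 bp upstream of lncRNA:CR44339 (2R 12984925 to 12985503), with a signal of 3566, rank 111 in the IDR set and 4223 bp from the TSS of Psc, a Polycomb group gene. Its relative signal was 8.06, 5.75 and 9.50 in replicates 1, 2 and 3. The next, 123 bp upstream of lncRNA:CR31044 (3R 29214156 to 29214711, signal 3118), had 7.56, 4.43 and 8.03. It was followed by lncRNA:CR46036 (3R 17700297 to 17700863, signal 2678; 6.46, 3.66 and 6.98), in an intron of osa, which encodes a subunit of a Brahma chromatin remodelling complex. In these 3, replicate 2 was the lowest replicate.

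The opposite order was seen at lncRNA:CR45433 (3L 19860990 to 19861689, signal 2457), where replicate 2 was the highest. The summit lay 107 bp upstream of the start and 8207 bp from Rab8, and its relative signal was 4.69, 8.47 and 4.42. Its window, shown above, had 53.5% GC. The windows of lncRNA:CR46036 and lncRNA:CR31044, where replicate 2 was the lowest, had 18.8% and 39.6%. High GC did not always go with a high replicate 2. At lncRNA:CR43650 (56.4% GC) and lncRNA:CR44371 (61.4%), replicate 2 over the mean of the others was 0.736 and 0.900. These are single summits, and the part of base composition was not tested. Replicate 2 exceeded the mean of the other replicates at 6 of the 25 strongest summits, which were lncRNA:CR45433, tRNA:Phe-GAA-1-5, tRNA:Ser-AGA-2-4, asRNA:CR44179, lncRNA:CR44933 and lncRNA:CR43144, and 4 of these 6 held CANCACTG. At Uhg4 the replicates were nearly alike, at 3.37, 3.40 and 3.54.

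Several strong lncRNA summits lay downstream of the start or near well-known genes. lncRNA:CR44619 (X, signal 2658) had its summit 489 bp downstream of its start, lncRNA:CR44409 (2L, 2054) 494 bp downstream within an intron of Dif, an NF-kappaB factor of the immune response, and lncRNA:CR44363 (3L, 1526) 498 bp downstream. These 3 lay just inside the 500 bp limit of the rule. lncRNA:CR45595 (3R, 2433) lay 1189 bp from l(3)neo38, lncRNA:CR42657 (X, 2085) 677 bp from nej, which encodes the CBP acetyltransferase, and lncRNA:CR45668 (X, 1524) 676 bp from Act5C, a cytoplasmic actin gene. asRNA:CR44429 (X, 1565) lay in an intron of gce, a juvenile hormone receptor gene, 515 bp from its TSS. Inside other hosts were lncRNA:CR44867 (beat-Ib, 1485), lncRNA:CR44478 (Socs36E, an inhibitor of JAK/STAT signalling, 1307) and lncRNA:CR45997 (mbl, a splicing regulator, 1281).
The remaining lncRNA summits among the 25 strongest, at lncRNA:CR44676, lncRNA:CR44933, lncRNA:CR44380, lncRNA:CR44276, lncRNA:CR43144, lncRNA:CR43626 and lncRNA:CR45352, had signals of 1724 to 1272. asRNA:CR44179 (1613) lay in the 3′ UTR of CG33494.

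**Figure D4:**
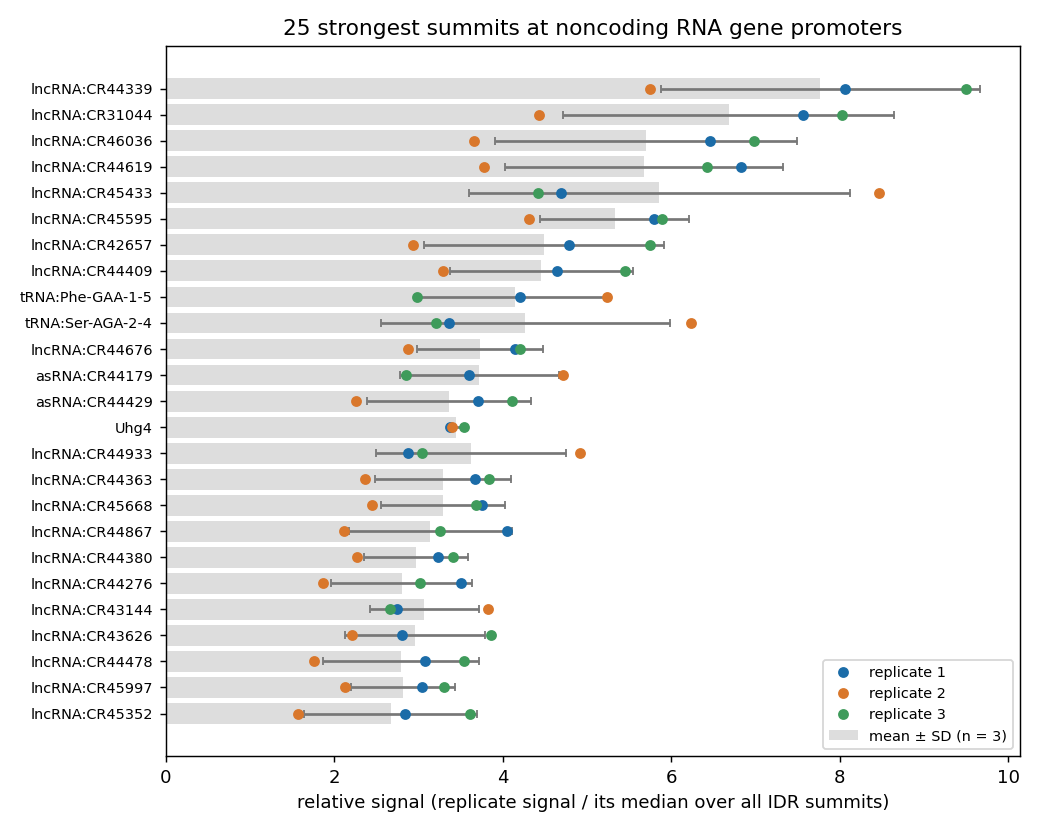
Relative signal of the 25 strongest noncoding promoter summits, named by the nearest noncoding gene, in each replicate (points), with bars and error bars for the mean ± SD over 3 replicates. Replicate 2 is the lowest point at most lncRNA summits and the highest at lncRNA:CR45433 (8.47) and tRNA:Ser-AGA-2-4 (6.24).

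Summits at tRNA genes were weak, with 2 exceptions. Their signals ran from 204 to 1820 with a median of 278, and their median relative signal was 0.591, 0.647 and 0.662 in replicates 1, 2 and 3, against 1.20, 0.848 and 1.17 at lncRNA summits. The ratio of tRNA to lncRNA summits was 0.491, 0.763 and 0.565, below 1 in every replicate (mean 0.607 ± 0.141, SD, n = 3; two-sided exact sign-flip permutation p = 0.25). Without the 2 strongest, the tRNA medians were 0.572, 0.606 and 0.651. Of the 19 tRNA peaks, 11 were exactly 480 bp wide and centred on the summit (57.9%), against 31 of all 204 (15.2%) and 13.4% of all IDR summits; the 31 had signals of 204 to 352.

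The exceptions were tRNA:Phe-GAA-1-5 and tRNA:Ser-AGA-2-4. The first (2R 17604434 to 17604965, signal 1820) lay between a pair of phenylalanine tRNA genes, 81 bp upstream of tRNA:Phe-GAA-1-5 and 83 bp upstream of tRNA:Phe-GAA-1-4, and its relative signal was 4.20, 5.24 and 2.98 in replicates 1, 2 and 3. The second (2L 3172727 to 3173446, signal 1791) lay 84 bp upstream of tRNA:Ser-AGA-2-4 and 672 bp from the TSS of CG31698, with 3.36, 6.24 and 3.21. Replicate 2 was the highest in both, and both windows held CANCACTG.
Next came tRNA:Gln-TTG-2-1 (X, signal 576) in an intron of CG12535, and tRNA:Glu-CTC-3-6 (3L, signal 352) in an intron of Ptp61F, a protein tyrosine phosphatase gene. The glutamate tRNA summit lay among 4 glutamate tRNA genes, and its central 51 bases occurred 3 times in the genome, so reads could belong to another copy; the central 51 bases of the other 203 summits were unique.

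By amino acid, glutamate tRNA genes had the highest share among families of 10 or more genes. An IDR summit lay near 9 of 17 glutamate tRNA genes (52.9%, exact 95% CI 27.8 to 77.0) and 5 of 15 alanine tRNA genes, but 0 of 17 for glycine, 0 of 18 for lysine, 0 of 14 for threonine and 0 of 10 for asparagine. The 9 glutamate genes shared 4 summits, whereas the interval takes genes as independent. One of these summits was that of tRNA:Glu-CTC-3-6, whose central 51 bases occurred 3 times in the genome. In the relaxed pooled list, 94.1% of the glutamate, 90.0% of the asparagine, 72.2% of the lysine, 64.3% of the threonine and 41.2% of the glycine tRNA genes had a summit, so 0 in the IDR set did not mean that no peak was called. For asparagine the share in the replicates' own lists, taken at the length of the IDR set, was 13.3% ± 11.5 (SD, n = 3), above 0 in replicates 1 and 2 and 0 in replicate 3. Of all 290 annotated tRNA genes, 39 had a noncoding promoter summit, 18 an IDR summit near a protein-coding TSS, 140 a relaxed summit only and 93 none.

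Among genes for RNAs of the processing machinery, some snRNA genes had a summit. The share of snRNA genes given above, 13.8%, rests on 29 genes and stands beside 6.68% of all noncoding genes. Of the 4 U6 and U6atac snRNA genes, snRNA:U6:96Ac and snRNA:U6:96Ab shared 1 summit (signal 417), 140 bp upstream of the former; its relative signal was 1.16, 0.747 and 0.538 in replicates 1, 2 and 3. Its signal was close to the median of the 204 (406). Of the 21 other spliceosomal snRNA genes, 3 had a summit, each with a signal below that median: snRNA:U1:95Ca (signal 257), snRNA:U1:21D (232) and snRNA:U2:34ABb (224). A relaxed peak alone was called at a further 10 and none at 8. The 2 genes each for 7SK RNA, a regulator of the elongation factor P-TEFb, for the signal recognition particle RNA and for the RNase P and RNase MRP RNAs had no IDR summit. A relaxed peak alone was called at snRNA:7SKa and at RNaseMRP:RNA, with a pooled signal of 156 at each.

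Some snoRNA host genes had a noncoding promoter summit and others an IDR summit near a protein-coding TSS. Their counts stand beside 6.68% of noncoding genes and 41.0% of protein-coding genes with an IDR summit. Of the 7 Uhg genes found, Uhg4 (2R 9094813 to 9095533, signal 1549) and Uhg3 (2L, signal 277) had a noncoding promoter summit, 86 and 25 bp upstream of the start. At Uhg2, Uhg5 and Uhg8 the IDR summit (signal 918, 548 and 597) lay near a protein-coding TSS as well and falls outside the rule; Uhg1 had a relaxed peak and Uhg7 none. The relative signal at Uhg3 was 0.580, 0.770 and 0.516 in replicates 1, 2 and 3, all below the values at Uhg4. The 5 summits assigned to snoRNA genes had signals of 229 to 548; the 4 strongest were at snoRNA:185, snoRNA:Or-CD4, snoRNA:Or-CD13 and snoRNA:Psi18S-176.

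Among regulatory lncRNAs with known roles, roX2 and Hsromega had a noncoding promoter summit. lncRNA:roX2, which with roX1 guides the dosage compensation complex to the X chromosome, had a summit 31 bp upstream of its start (X 11578921 to 11579204, signal 353, rank 5076). Its signal was 141, 144 and 80.7 and its relative signal 0.697, 1.37 and 0.568 in replicates 1, 2 and 3. The ratio of replicate 2 to the mean of the others, 2.16, was the highest of the 204. lncRNA:roX1 had a relaxed peak only, at a pooled signal of 189.7, below the lowest IDR signal of 204.
lncRNA:Hsromega, the heat shock RNA that organises the nuclear omega speckles, had 2 summits in 1 interval (3R 21295718 to 21296788), with signals of 1117 and 329. Its relative signal was 2.54, 2.33 and 2.75; both summits take the replicate values of the stronger one. The second lay 159 bp upstream of the nearest start and held CANCACTG 4.5 bp from the summit. None of the 4 bithorax complex RNAs examined, lncRNA:bxd, lncRNA:iab8, mir-iab-4 and mir-iab-8, had an IDR summit, beside 6.68% of noncoding genes with one. lncRNA:iab8 had a relaxed peak only (pooled signal 86.1), as did mir-iab-4 and mir-iab-8 (61.3 each).

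Of 25 developmental miRNA genes examined, 1 had a summit, mir-ban, beside 7 of all 231 miRNA hairpins (3.03%). mir-ban encodes bantam, a miRNA that promotes growth and limits cell death; the summit (3L 642451 to 642831, signal 535) lay 429 bp downstream of the hairpin start, with a relative signal of 1.42, 0.692 and 1.14. A relaxed peak alone was called at 9 of the 25 and none at 15, among them the mir-309 cluster of the early embryo. The strongest hairpin summit was at mir-9377 in an intron of Tis11 (X, signal 956; 2.35, 1.30 and 2.39), followed by mir-4977 in the 5′ UTR of Eaf (585). mir-9378 had 2 summits in an intron of CG17124 (526 and 260.3). The weakest, mir-92b (215), lay in the 3′ UTR of its host jigr1. The 3 pseudogene summits, at CR14117, CR31032 and CR43158, had signals of 324, 311 and 275.

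Motifs of protein-coding promoters were rare at the noncoding promoter summits. Windows of 100 bp on each side of the summit were searched for exact matches on both strands. DRE, bound by DREF, was present in 2 of the 204 windows (0.980%), those of CR14117 and asRNA:CR45806, against 12.2% at protein-coding promoter summits and 0.735% at all noncoding TSSs. The M1BP motif, bound by motif 1 binding protein, was present in 4 (1.96%), at lncRNA:roX2, CR31032, CR43158 and asRNA:CR45924, against 9.42% and 0.612%. The BEAF-32 core, which also lies within DRE, was present in 35 (17.2%) against 46.4% and 24.0%. Over distal summits the 3 shares were 0.719%, 0.431% and 19.5%.

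CANCACTG was present in 13 of the 204 windows (6.37%), against 12.3% at protein-coding promoter summits, 4.37% at distal summits and 2.51% at all noncoding TSSs. In windows 1000 bp to each side of the 204 summits it was present in 8 of 408 (1.96%). Its median distance from the summit was 18.5 bp, and 9 of the 13 lay within 50 bp. It was present at 4 of the 19 tRNA summits (21.1%) and 9 of the 165 lncRNA summits (5.45%). Summits with the word had a median relative signal of 1.20, 1.71 and 1.36 in replicates 1, 2 and 3, and those without it 1.03, 0.779 and 1.09. The ratio was 1.16, 2.19 and 1.25, above 1 in every replicate (two-sided exact sign-flip permutation p = 0.25). Among the 13, the weaker Hsromega summit (signal 329) takes its stronger neighbour's values, 2.54, 2.33 and 2.75, above the medians with the word. The values next below those medians in replicates 2 and 3 were 1.08 at tRNA:Glu-CTC-3-6 and 1.12 at lncRNA:CR43883. The ratio without the Hsromega summit was not computed. The 5 strongest of the 13 were at tRNA:Phe-GAA-1-5, tRNA:Ser-AGA-2-4, asRNA:CR44179, lncRNA:CR43144 and lncRNA:CR44127, with signals of 1820 to 1210.
At lncRNA:CR43144 (2L 21657283 to 21657945, signal 1335) the summit lay 3 bp downstream of the start and 1107 bp from Cul2, a cullin gene, with a relative signal of 2.75, 3.82 and 2.66.

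The letters of core promoter elements, counted at any position in the window, gave a different picture. TATAAA was present in 79 of the 204 windows (38.7%), close to protein-coding promoter summits (35.9%) and distal summits (42.0%), against 23.5% of all noncoding TSSs and 23.8% of the windows 1000 bp beside the summits. GAGAG, the core of the GAGA factor site, was present in 42 (20.6%; 16.7% and 20.8% at protein-coding promoter and distal summits) and in 8 of the 19 tRNA windows (42.1%). The letters of the RNA polymerase III A box (TNGCNNAGT) were present in 20 (9.80%) against 11.8% of noncoding TSSs, and those of the B box (GGTTCGA) in 2 (0.980%) against 5.57%. The B box share was 2.14% in the replicates' own lists (2.00% to 2.23% without each replicate) and 4.90% with 200 bp on each side. Windows at TSSs were centred on the start, whereas tRNA summits had a median position of −94.0 bp and both boxes lie inside the gene. The A box and B box shares therefore do not compare like positions, and no TSS share with 200 bp is given. The windows were AT-rich, with a median GC content of 30.2% over 101 bp, between distal summits (28.7%) and protein-coding promoter summits (34.7%), and no share was adjusted for composition.

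**Figure D5:**
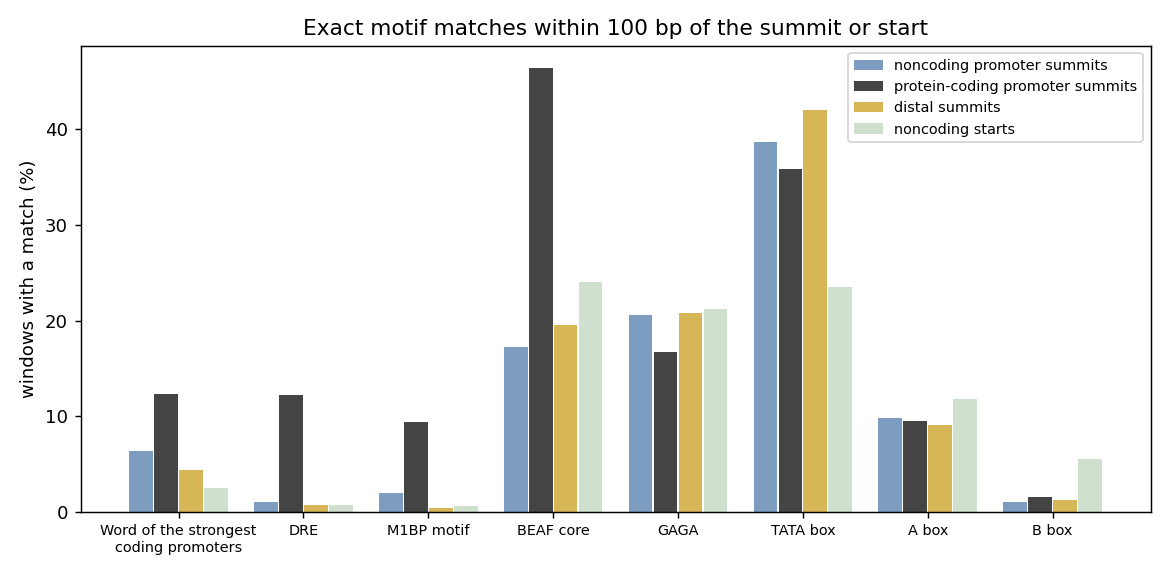
Percentage of windows with an exact match within 100 bp, for the 204 noncoding promoter summits, protein-coding promoter summits, distal summits and all noncoding starts; the first group of bars is CANCACTG. DRE is at 0.980% of noncoding and 12.2% of protein-coding promoter summits, and the letters of the TATA box at 38.7% and 35.9%.

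Below the IDR threshold, noncoding promoters also held relaxed summits. The pooled relaxed list held 896 summits at noncoding promoters (2.99% of 30000), 692 of them weaker than the lowest IDR signal. The share in the IDR set was 2.36%. Noncoding promoter sequence covered 2.80 Mb, beside 15.3 Mb of protein-coding promoter and 116 Mb of distal sequence. Whether the weaker summits are sites of the same kind was not tested.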

How the data were processed

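ChIP-seq peak lists of 3 biological replicates on dm6 were used; chromatin was sheared to 200 to 800 bp, per the labels. The deposited signal of each peak is the peak caller's value. The deposited −log10 q value was the same for every peak of the IDR set, so peaks were ranked by signal. No source used here names the aligner or the caller, and the control library was not analysed here. Per the labels the pooled and IDR lists derive from replicates 2 and 3. At the 173 noncoding promoter peaks that overlap no other IDR peak, however, the signal over the sum of all 3 replicates had a median of 0.995 (1.92 over replicates 2 and 3), so no replicate is taken as independent of the set. The lists hold no read counts, so depth is unknown.

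Summits (start plus offset) were assigned with Ensembl release 115 models on the major chromosomes; starts of mature miRNAs were left out. A replicate's signal at a summit is that of its strongest relaxed peak overlapping the interval; 33 of the 204 summits share that peak with another IDR summit in at least 1 replicate, and then both take the same value. Ratios were tested over 3 replicates by a two-sided exact sign-flip permutation test, and intervals are Clopper-Pearson (95%, counting error only). Genes were named by rule: those at the 25 strongest summits, those at the 4 strongest of each class, and lists of known RNAs, of which part is printed. The summits and lists were chosen with earlier results of these data known. Python 3.11.15, numpy 2.4.6, scipy 1.17.1 and pandas 2.3.3 were used, and the assignment, motif search and test were checked on simulated data. Alternatives were other TSS windows, the stronger summits, 1 summit per interval, no pseudogenes, replicate lists, other motif windows and leaving out each replicate.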

Additional observations from a re-analysis of the deposited data

How the results depend on the processing

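No paired analysis was possible because all samples belong to 1 group. With the 50% strongest summits, 102 summits lay at noncoding promoters, 3.34% of noncoding genes had one, 65.7% of the summits lay at or upstream of the start, 0 held DRE and 8.82% held CANCACTG; with this list the tRNA gene share was 1.94% and the lncRNA gene share 4.31%, the reverse of their order in the full set. TSS windows of 250 and 1000 bp gave noncoding shares of 1.70% and 3.36% of summits, 4.39% and 10.4% of genes and 72.1% and 54.8% at or upstream of the start; a wider window takes in more sequence by construction. Over 1000 bp from every protein-coding TSS, the shares were 2.04% and 63.1%. In the replicates' own lists, 63.0% lay at or upstream (62.8% to 63.3% without each replicate) and 5.60% held CANCACTG (5.34% to 5.96%); windows of 50 and 200 bp gave 4.41% and 9.31%. The log2 signal ratio to distal summits ran from 0.13 to 0.37 and that to protein-coding promoter summits from −0.41 to −0.02 over the alternatives tried; without summits whose interval overlaps another, an alternative chosen after seeing the data, they were 0.22 and −0.17. The causes were not tested. Unknown depth, the lack of a control signal and 3 replicates limit every value here.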
